A study of Homo sapiens with 4 samples.

Results

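Gene expression after joint depletion of c-Myc and Bcl-2 was compared with that after a control hairpin in MOLM-13. This established human line was derived from acute myeloid leukaemia and has the KMT2A-MLLT3 fusion and an internal tandem duplication of FLT3. The double knockdown library, sh-c-Myc_sh-Bcl2, comes from cells with hairpins against both genes. The shControl library, against which it is set, comes from cells with a negative control hairpin. A pair of further libraries carried sh-c-Myc or sh-Bcl2 alone and are given beside the double knockdown. All 4 libraries are labelled as doxycycline-induced, so induction is shared by the controls. Hairpins were delivered by lentivirus, cells were selected with puromycin or G418, and the labels mention a Western blot after 72 h of doxycycline, whose values are not used here. The labels do not say how long the cells used for RNA were induced. The study asked what joint depletion does to mitochondria and to global transcription. Each group is 1 library from a transduced and selected culture of 1 line, and hairpin sequences are not analysed here. The genes described are the 13007 of 24940 listed genes that had at least 1 CPM, the library-scaled read count, in the double knockdown or in shControl. Just inside this limit, 193 genes whose larger value lay from 1 up to 1.1 CPM had a median log2 ratio of 0.50. Just outside it, 213 genes between 0.9 and 1 CPM had a median of -0.26.

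MYC is a transcription factor that pairs with MAX and binds the E-box, and it drives ribosome production, nucleotide and amino acid metabolism, mitochondrial biogenesis and cell cycle entry. BCL-2 sits on the outer mitochondrial membrane, where it binds pro-apoptotic relatives and holds back release of cytochrome c. In myeloid leukaemia, MYC keeps cells in a growing, immature state, and BCL-2 supports survival and respiration of leukaemic cells.

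The libraries held 15494138 counts for the double knockdown, 14421558 for sh-c-Myc, 15691129 for sh-Bcl2 and 14825763 for shControl. Levels are CPM with library sizes scaled by TMM factors (trimmed mean of M values). A count of 3, taken as the floor, equals 0.192 CPM in the double knockdown and 0.213 CPM in shControl. Brackets after a fold or a log2 ratio hold the 95% counting interval. These intervals cover counting error only, and the reads carry no molecular identifiers. With 1 library a group there is no replicate check and no test between groups, so no p-value is given. A gene is called higher or lower when its ratio is at least 2-fold, its interval excludes 1 and it has at least 1 CPM in either library. The calls therefore compare these libraries. In bulk RNA, fewer cells of a type and less RNA per cell cannot be told apart. Genes of the mitochondrial chromosome took 5.73% of counts in the double knockdown, 5.80% in sh-c-Myc, 5.60% in sh-Bcl2 and 4.53% in shControl. Cytosolic ribosomal protein genes took 6.18%, 5.80% and 7.16% in the same order of knockdowns and 9.03% in shControl.

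The levels of both targeted genes lay below shControl in the double knockdown, that of BCL2 past the call limit. BCL2 (chr18:63123346-63320128, GRCh38, coordinates from GENCODE 29) had 44.5 CPM in the double knockdown, 112 in sh-c-Myc, 38.7 in sh-Bcl2 and 119.7 in shControl. It was 2.69-fold (2.46 to 2.94) lower in the double knockdown than in shControl, and the levels of the libraries with the Bcl-2 hairpin lay far below those of the other pair. MYC (chr8:127735434-127741434) had 302 CPM in the double knockdown, 278 in sh-c-Myc, 364 in sh-Bcl2 and 434 in shControl. It was 1.44-fold (1.38 to 1.49) lower in the double knockdown, which is under the 2-fold limit, so MYC is not called. The sh-c-Myc library had the lowest MYC level and the double knockdown the next. The files hold no protein values, so the depth of c-Myc protein loss is not analysed here.

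Markers of the line were present. Of 14 markers of the line, 13 passed the CPM limit and 1 was called, CSF1R (3 with libraries scaled by total counts in place of TMM). FLT3, the receptor tyrosine kinase, had 592 CPM in the double knockdown and 426 CPM in shControl, and PTPRC, the pan-leukocyte CD45, had 595 CPM in the double knockdown and 301 CPM in shControl. HOXA9 had 60.5 CPM in the double knockdown and 48.1 CPM in shControl, MEIS1 25.5 CPM in the double knockdown and 38.2 CPM in shControl and CD33 52.2 CPM in the double knockdown and 45.7 CPM in shControl. Of 16 T and NK cell markers, 8 are in the table and 3 passed, and their summed level was 301 CPM in the double knockdown and 322 CPM in shControl. Of the 8, 3 are at 0 in the double knockdown and 4 in shControl, and nearly all of the sum was NCAM1 (242 against 248 CPM) and NKG7 (52.9 against 67.8 CPM). Of 12 B cell markers, 8 are in the table and 3 passed, with a summed level of 107 against 42.1 CPM. BANK1, a B cell adaptor, made up most of that sum (103 against 38.5 CPM) and was called higher, whereas PAX5, a B cell transcription factor, was called lower (0.128 against 1.28 CPM, 2 counts in the double knockdown), with a log2 ratio of -3.04 (-6.47 to -1.26). Of the 8, 1 is at 0 in the double knockdown and 2 in shControl. Erythroid markers summed to 33.8 against 28.8 CPM and megakaryocyte markers to 6.40 against 6.88 CPM. Of the 6 erythroid markers listed in the files, 2 are at 0 in the double knockdown and 3 in shControl, and of 7 megakaryocyte markers 3 are at 0 in each. The part of these markers in the results was not tested.

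In the double knockdown, 917 of the 13007 genes (7.05%) were higher and 800 (6.15%) were lower than in shControl. The background against which each group below can be read is therefore 7.05% higher and 6.15% lower, with a median log2 ratio of -0.02 over all genes and quartiles of -0.41 and 0.36. This background differs by level. Of genes whose larger value lay between 1 and 10 CPM, 16.3% were higher and 9.71% lower. A gene low in 1 library passes the CPM limit only through the other, so shares of lists with low genes are descriptions. At 4-fold or more, 195 genes (1.5%) were higher and 112 (0.861%) lower. At 8-fold or more, 47 (0.361%) were higher and 24 (0.185%) lower. The genes called higher took 3.79% of the counts of the double knockdown and 1.39% of those of shControl. The genes called lower took 2.15% of the counts of the double knockdown and 4.94% of those of shControl. Among the gene lists described below, the ATF4 and integrated stress response list had the lowest median log2 ratio and the granulocyte granule list the highest.

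**Figure D1:**
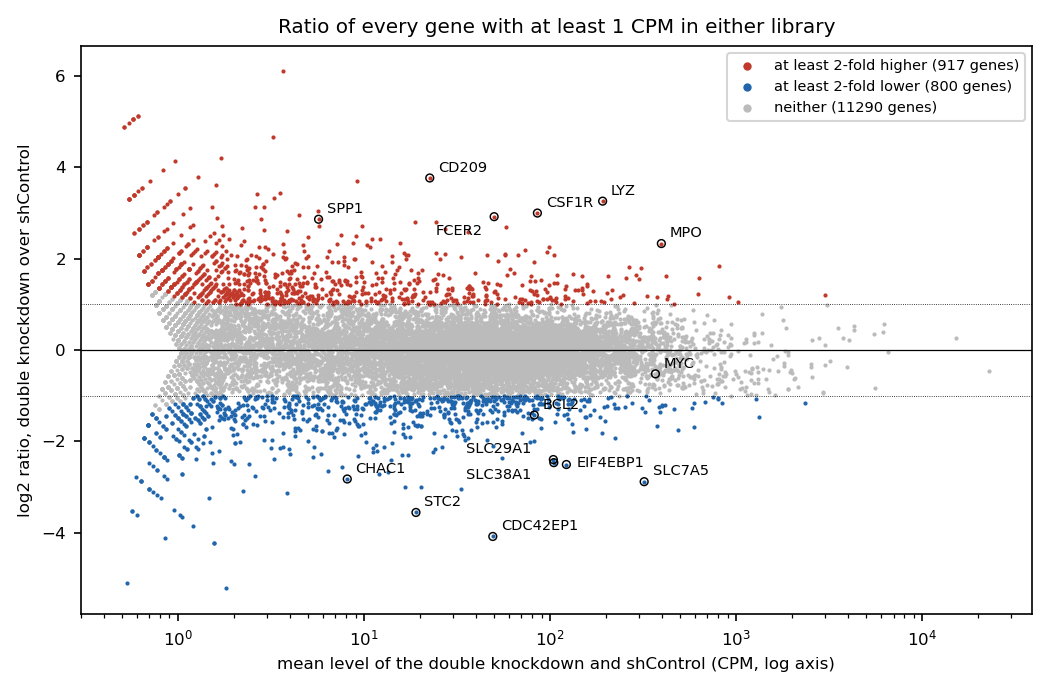
Log2 ratio of the double knockdown over shControl (vertical axis) against the mean level of both libraries in CPM (horizontal log axis) for 13007 genes, 1 point each. Red points are the 917 genes called higher and blue points the 800 called lower, dotted lines mark 2-fold, and circles name genes described in the text. LYZ and CSF1R stand above the cloud and SLC7A5 and CDC42EP1 below it, while MYC lies inside the 2-fold lines.

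The 15 genes with the largest conservative fold on the higher side, among genes at 10 CPM or more in either library, included several known products of monocytes, macrophages and granulocytes. CD209, the dendritic cell and macrophage lectin DC-SIGN (chr19:7739994-7747564), had 42 CPM in the double knockdown, 30.9 in sh-c-Myc, 11.8 in sh-Bcl2 and 3.05 in shControl. It was 13.6-fold (10.1 to 19.2) higher in the double knockdown than in shControl. LYZ, lysozyme (chr12:69348341-69354234), had 347 CPM in the double knockdown, 239.6 in sh-c-Myc, 91.8 in sh-Bcl2 and 36.1 in shControl, which is 9.58-fold (8.76 to 10.5) higher. For both genes all 3 knockdown libraries lay above shControl and the double knockdown was the highest. About 34% of the exonic bases of LYZ overlap another annotated gene, so its count is uncertain where strand was not used. CSF1R, which binds the cytokine M-CSF (chr5:150053291-150113372), had 152 CPM in the double knockdown, 179 in sh-c-Myc, 35.7 in sh-Bcl2 and 19 in shControl, 8.0-fold (7.06 to 9.12) higher. MPO, the myeloperoxidase of azurophil granules, had 660.2 CPM in the double knockdown, 652 in sh-c-Myc, 164 in sh-Bcl2 and 131 in shControl, 5.03-fold (4.79 to 5.29) higher. In these genes sh-c-Myc and the double knockdown were close to each other, and sh-Bcl2 lay nearer to shControl. FCER2, the low-affinity IgE receptor CD23, had 88.3 CPM in the double knockdown and 11.6 CPM in shControl, and PTAFR, the receptor for platelet-activating factor, had 99.9 CPM in the double knockdown and 15.4 CPM in shControl. CD36, a scavenger and fatty acid receptor, had 164 CPM in the double knockdown and 34.1 CPM in shControl. FGL2, a fibrinogen-like protein of myeloid cells, MPEG1, the macrophage perforin, S100A8 and S100A9, which form calprotectin, FGD2, an activator of CDC42 in myeloid cells, the surface antigen GPA33 and the noncoding gene AC096667.1 completed the set with folds from 6.0 (FGD2) to 13 (FGL2). SPP1, the secreted phosphoprotein osteopontin, was the exception to the order of the libraries. It had 10.04 CPM in the double knockdown, 2.12 in sh-c-Myc, 9.84 in sh-Bcl2 and 1.35 in shControl, so the libraries with the Bcl-2 hairpin were high and the other pair low.

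**Figure D2:**
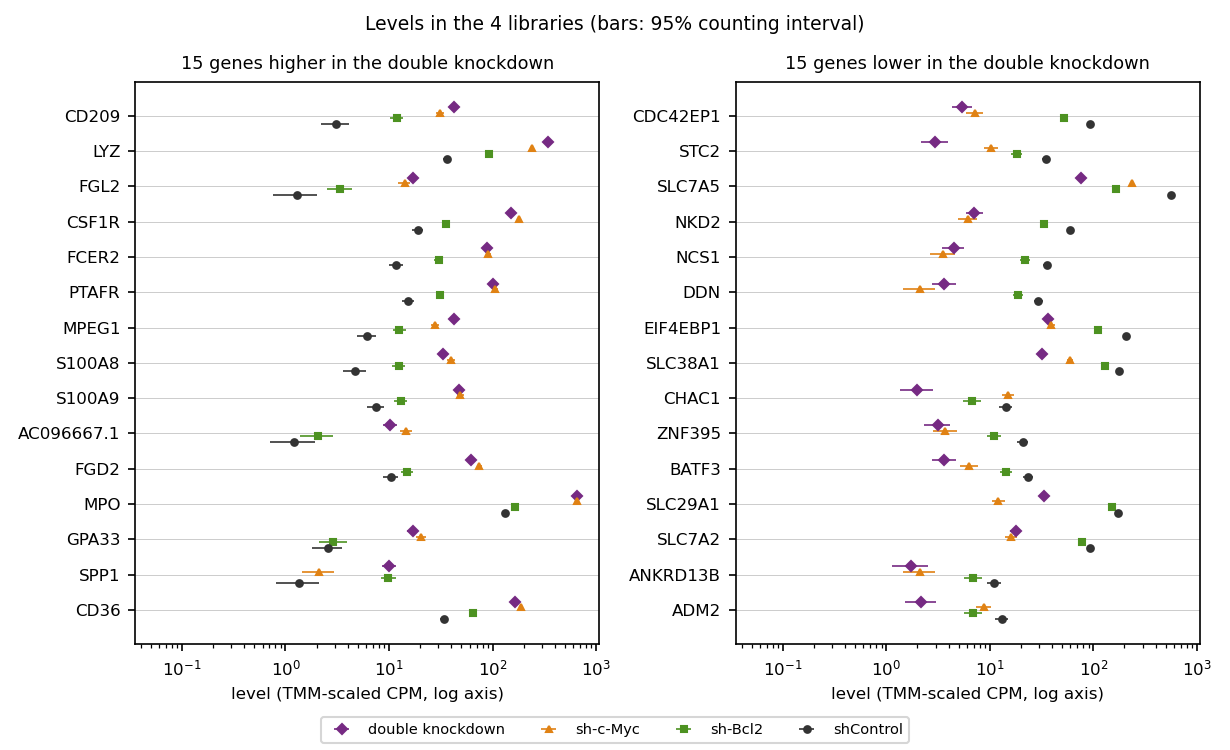
Levels in TMM-scaled CPM (horizontal log axis) of the 15 genes with the largest conservative fold in each direction, with 1 marker per library and bars for the 95% counting interval. In many rows the double knockdown (diamonds) lies beside sh-c-Myc (triangles) and far from shControl (circles). Rows that depart from this include SPP1, at 10.04 CPM in the double knockdown and 1.35 in shControl, and CHAC1, at 1.98 against 14.3 CPM. For SLC7A5, STC2 and ADM2 the double knockdown also lies well below sh-c-Myc, and for SLC29A1 it lies above sh-c-Myc.

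On the lower side, the largest conservative fold was that of CDC42EP1, an effector of the GTPase CDC42 (chr22:37560447-37569405). It had 5.44 CPM in the double knockdown, 7.18 in sh-c-Myc, 51.8 in sh-Bcl2 and 92.9 in shControl, which is 17-fold (13.7 to 21.5) lower in the double knockdown than in shControl. STC2, the secreted glycoprotein stanniocalcin 2 (chr5:173314713-173329503), had 2.94 CPM in the double knockdown, 10.3 in sh-c-Myc, 18.2 in sh-Bcl2 and 35.1 in shControl and was 11.8-fold (8.80 to 16.5) lower. The double knockdown lay below both single knockdowns for STC2. SLC7A5, the large neutral amino acid transporter LAT1 (chr16:87830023-87869488), had 76.2 CPM in the double knockdown, 237 in sh-c-Myc, 167 in sh-Bcl2 and 564 in shControl, 7.39-fold (6.96 to 7.87) lower, and was likewise lowest in the double knockdown. SLC7A5 has near-identical pseudogene copies, so its count may be split. The copy SLC7A5P1, chosen after its values were seen, had 0.128 against 2.98 CPM. EIF4EBP1, the repressor of cap-dependent translation 4E-BP1, had 36.5 CPM in the double knockdown and 208 CPM in shControl, and SLC29A1, the nucleoside transporter ENT1, had 33.1 CPM in the double knockdown and 175 CPM in shControl. NKD2, an antagonist of Wnt signalling, had 7.10 CPM in the double knockdown and 59.1 CPM in shControl, NCS1, a calcium sensor, had 4.48 CPM in the double knockdown and 35.8 CPM in shControl, and BATF3, a factor of dendritic cell development, had 3.65 CPM in the double knockdown and 23.4 CPM in shControl. The others were DDN, CHAC1, SLC38A1, ZNF395, SLC7A2, ANKRD13B and ADM2, between 5.18-fold (SLC7A2) and 8.0-fold (DDN) lower. For ZNF395, 34.9% of exonic bases overlap another gene.

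Partners and antagonists of MYC gave no call, whereas some relatives of BCL-2 were called. Of 11 measured genes of the MYC, MAX and MXD network, 0 were called and the median log2 ratio was 0.03, against -0.02 over all genes. MAX, the obligate partner of MYC, had 22.2 CPM in the double knockdown and 29.5 CPM in shControl, 1.33-fold lower and not called, and MXD1, a competitor for MAX, had 45.7 CPM in the double knockdown and 33.4 CPM in shControl. Among 5 anti-apoptotic relatives that passed, of 6 listed, BCL2 was lower and BCL2A1 higher, at 5.95 CPM in the double knockdown and 1.77 CPM in shControl, 3.30-fold (2.14 to 5.44). MCL1, which shields cells from BAK, had 463 CPM in the double knockdown and 357 CPM in shControl, 1.30-fold higher and not called, and BCL2L1, which encodes BCL-XL, had 9.53 CPM in the double knockdown and 11.6 CPM in shControl. Among 13 pro-apoptotic relatives that passed, of 15 listed, 4 were called lower (30.8%, against 6.15% of all genes) and 0 higher. BBC3, the BH3-only protein PUMA, had 6.40 CPM in the double knockdown, 11.1 in sh-c-Myc, 7.13 in sh-Bcl2 and 16.4 in shControl, 2.56-fold (2.02 to 3.27) lower. PMAIP1, the BH3-only protein NOXA, had 27.8 CPM in the double knockdown, 21 in sh-c-Myc, 44.9 in sh-Bcl2 and 60.3 in shControl, 2.17-fold (1.93 to 2.45) lower. BNIP3 had 1.66 CPM in the double knockdown and 3.55 CPM in shControl and HRK 0.320 CPM in the double knockdown and 1.70 CPM in shControl, and both are low in these libraries. BAX, a pore former, had 47 CPM in the double knockdown and 89.2 CPM in shControl, 1.90-fold lower and not called, and BCL2L11, the BH3-only protein BIM, had 68.1 CPM in the double knockdown and 46.9 CPM in shControl. Of 16 measured caspase and apoptosome genes 0 were called (2 higher with total counts), with a median of 0.31. APAF1, the core of the apoptosome, had 295 CPM in the double knockdown and 151 CPM in shControl, which is 1.96-fold higher and just under the limit, and CYCS, cytochrome c, had 218 CPM in the double knockdown and 322 CPM in shControl.

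**Figure D3:**
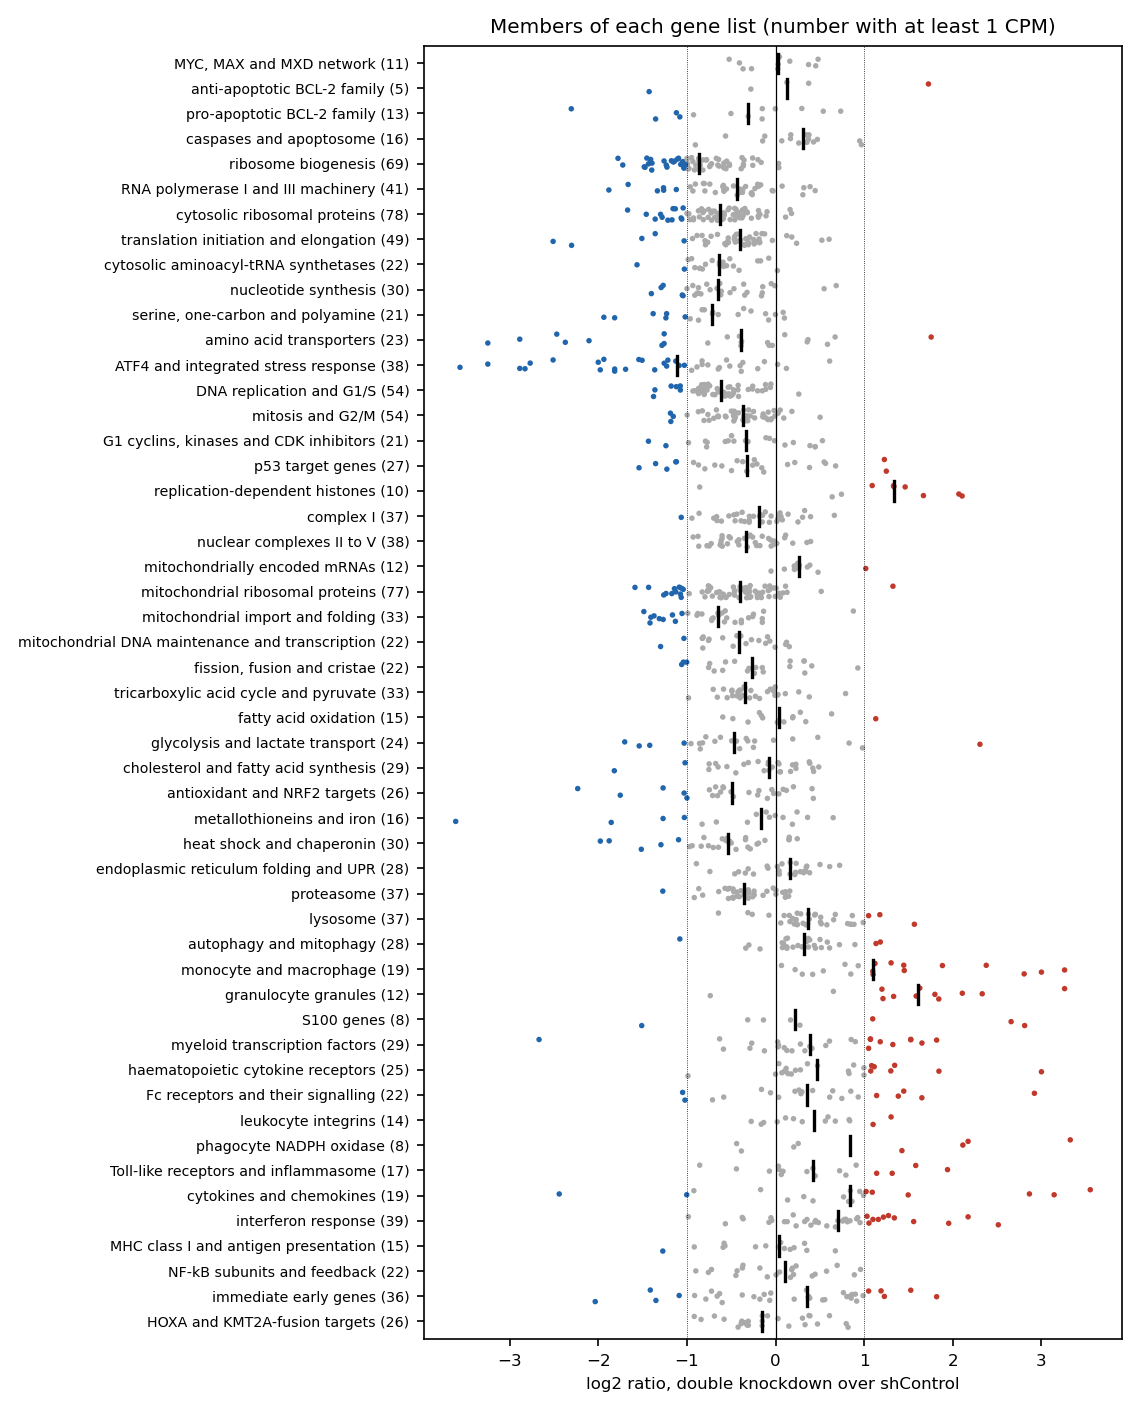
Log2 ratio of the double knockdown over shControl (horizontal axis) for members of 51 gene lists that had at least 1 CPM in either library, with their number in brackets. Each point is a gene, red if called higher, blue if called lower and grey otherwise, black bars are list medians and dotted lines mark 2-fold. The medians run between -1.11 for ATF4 and integrated stress response genes and 1.61 for granulocyte granule genes.

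Ribosome biogenesis held the largest number of lower genes of the 59 lists. Of 69 ribosome biogenesis genes that passed, of 70 listed, 24 were lower (34.8%, against 6.15% of all genes) and 0 were higher, with a median log2 ratio of -0.87. Ratios were below 0 for 67 of the 69. NLE1, a factor of large-subunit maturation, had 14 CPM in the double knockdown, 9.62 in sh-c-Myc, 33.9 in sh-Bcl2 and 48.1 in shControl, 3.43-fold (2.95 to 4.02) lower. MYBBP1A, a nucleolar MYB-binding protein, had 72.2 CPM in the double knockdown, 48.4 in sh-c-Myc, 207 in sh-Bcl2 and 239 in shControl, 3.30-fold (3.09 to 3.54) lower, and BOP1, of the PeBoW complex, had 98.3 CPM in the double knockdown, 74.3 in sh-c-Myc, 234 in sh-Bcl2 and 273 in shControl, 2.78-fold (2.62 to 2.95) lower. In these 3 genes the sh-c-Myc level was below that of the double knockdown, and sh-Bcl2 lay between the double knockdown and shControl. IMP4, a component of the small-subunit processome, had 40.2 CPM in the double knockdown and 112 CPM in shControl, and LYAR, a nucleolar protein, had 24 CPM in the double knockdown and 63.2 CPM in shControl. Its 2 most abundant members were not called. NCL, nucleolin, had 763 CPM in the double knockdown and 1519.8 CPM in shControl, 1.99-fold lower and just under the limit, and NPM1, nucleophosmin, had 936 CPM in the double knockdown and 1544 CPM in shControl. Of 41 genes for RNA polymerases I and III, 6 were lower and 0 higher, with a median of -0.43. POLR3G, a subunit of RNA polymerase III, had 11.6 CPM in the double knockdown, 6.61 in sh-c-Myc, 39.2 in sh-Bcl2 and 42.7 in shControl, 3.68-fold (3.12 to 4.38) lower, and POLR1E, of RNA polymerase I, had 25.8 CPM in the double knockdown and 56.2 CPM in shControl. UBTF, the upstream binding factor of ribosomal DNA, had 195 CPM in the double knockdown and 294 CPM in shControl and was not called.

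Promoters of several of these genes hold the E-box bound by MYC and MAX. Promoter sequences of 300 bases, from 250 before to 50 after the gene start, were taken from RefSeq (GRCh38.p14) and searched on both strands for CACGTG. Of 10806 measured protein-coding genes considered, 9182 (85.0%) had such a promoter, and 12.8% of those 9182 genes held CACGTG. Of 636 genes called lower, 514 (80.8%) had a promoter, a smaller share than the 85.0% above. Among those 514 genes called lower, 97 (18.9%) held CACGTG, which describes that part only. In the ribosome biogenesis list it was 30 of 61 genes (49.2%), and 14 of the 21 members called lower. The list gathers genes of ribosome production, which MYC drives, so the share of the whole list describes the list and not the knockdown. Genes called lower had a median GC content of 54.3%, against 48.0% of all genes, and its part in these shares was not tested. Of 62 cytosolic ribosomal protein genes, 4 held it (6.45%), and of their 8 members called lower 0 did, while in the replication list it was 6 of 46, near the share over all promoters. Genes with CACGTG had a median log2 ratio of -0.13 and genes without it -0.04. For genes called higher only 76.5% had a promoter in the table, so the check is void for them. A match is a description of letters and not a bound site. The following stretches before the gene start come from 4 genes called lower, chosen because they hold CACGTG, which is shown in capitals. All are written 5′ to 3′ on the strand of the gene.
SLC7A5, chr16:87869602-87869667, minus strand: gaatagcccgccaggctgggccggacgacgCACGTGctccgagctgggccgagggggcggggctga
SLC38A5, chrX:48470431-48470496, minus strand: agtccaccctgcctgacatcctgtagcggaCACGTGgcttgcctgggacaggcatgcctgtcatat
IMP4, chr2:130342664-130342729, plus strand: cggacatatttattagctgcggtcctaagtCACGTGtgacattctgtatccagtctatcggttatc
LYAR, chr4:4290050-4290115, minus strand: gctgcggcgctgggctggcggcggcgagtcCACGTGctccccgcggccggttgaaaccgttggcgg
Between the motif and the gene start lie 124 bases in SLC7A5, 200 in SLC38A5, 197 in IMP4 and 58 in LYAR.

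Ratios of the translation machinery lay mostly below 0, with few calls. Of 78 cytosolic ribosomal protein genes, 12 were lower (15.4%) and 0 higher, and the median log2 ratio was -0.62, with 75 of the 78 below 0. RPL36 had 180.3 CPM in the double knockdown, 168 in sh-c-Myc, 242 in sh-Bcl2 and 574 in shControl, 3.18-fold (3.05 to 3.32) lower. RPL8 had 703 CPM in the double knockdown, 739 in sh-c-Myc, 1046 in sh-Bcl2 and 1933 in shControl, 2.75-fold (2.69 to 2.81) lower. In both, sh-Bcl2 also lay below shControl, and the double knockdown lay beside sh-c-Myc. RPLP0, of the ribosomal stalk, had 3419.9 CPM in the double knockdown and 4409.5 CPM in shControl and RPL4 2669 CPM in the double knockdown and 3338 CPM in shControl, and neither was called. Ribosomal protein genes have many processed pseudogenes, so single members are uncertain. Of 49 initiation and elongation factors, 5 were lower and 0 higher (median -0.40). EIF6, which keeps ribosomal subunits apart, had 15.9 CPM in the double knockdown and 40.9 CPM in shControl, and EIF2B3, of the exchange factor eIF2B, had 19.3 CPM in the double knockdown and 39.5 CPM in shControl. EIF3C had 5.37 CPM in the double knockdown and 26.6 CPM in shControl and shares near-identical sequence with EIF3CL, so its count is uncertain. Of the main elongation factors, EEF1A1 had 19079.5 CPM in the double knockdown and 26357 CPM in shControl, a log2 ratio of -0.47. EEF2 had 4008 CPM in the double knockdown and 7122 CPM in shControl, a log2 ratio of -0.83, and neither was called. Of 22 cytosolic aminoacyl-tRNA synthetases, which charge tRNAs with amino acids, 2 were lower (median -0.63). FARSA, for phenylalanine, had 99.6 CPM in the double knockdown and 294 CPM in shControl, 2.96-fold (2.79 to 3.14) lower. GARS, for glycine, had 139 CPM in the double knockdown and 284 CPM in shControl, 2.04-fold (1.94 to 2.15) lower, and with total counts GARS and EIF2B3 were not called. AARS, for alanine, had 267 CPM in the double knockdown and 515 CPM in shControl and was not called.

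The ATF4 and integrated stress response list held the largest share of lower genes of the 59 lists. This response, set off by phosphorylation of eIF2α, lets the factor ATF4 raise genes of amino acid import and synthesis. Of 38 members that passed, of 40 listed, 21 were lower (55.3%) and 0 higher, with a median log2 ratio of -1.11 and 35 ratios below 0. ATF4 itself (chr22:39519695-39522685) had 250.1 CPM in the double knockdown, 314 in sh-c-Myc, 319 in sh-Bcl2 and 581 in shControl, 2.32-fold (2.24 to 2.41) lower, with both single knockdowns between the double knockdown and shControl. CHAC1, which degrades glutathione, had 1.98 CPM in the double knockdown, 15.1 in sh-c-Myc, 6.74 in sh-Bcl2 and 14.3 in shControl, 7.10-fold (4.91 to 10.9) lower. CHAC1 was therefore lower in the double knockdown than in every other library, and sh-c-Myc did not differ from shControl beyond counting error, at a log2 ratio of 0.08 (-0.20 to 0.36). ADM2, the peptide hormone adrenomedullin 2, is no member of the list and had 2.17 CPM in the double knockdown, 8.72 in sh-c-Myc, 6.87 in sh-Bcl2 and 13.1 in shControl. SESN2, a stress-induced regulator of mTORC1, had 28.2 CPM in the double knockdown, 60.9 in sh-c-Myc, 35.7 in sh-Bcl2 and 61.6 in shControl, 2.18-fold (1.95 to 2.45) lower. ASNS, asparagine synthetase, had 0.640 CPM in the double knockdown, 3.27 in sh-c-Myc, 1.72 in sh-Bcl2 and 4.54 in shControl. For these genes too the double knockdown was the lowest library. This list overlaps those of serine synthesis and amino acid transport.

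Of 21 measured genes of serine, 1-carbon and polyamine metabolism, 6 were lower (28.6%) and 0 higher, with a median of -0.71. Of the enzymes of serine synthesis, PHGDH had 83.9 CPM in the double knockdown and 295 CPM in shControl, 3.52-fold (3.31 to 3.75) lower. PSAT1 had 91.7 CPM in the double knockdown and 351 CPM in shControl, 3.83-fold (3.61 to 4.07) lower. SHMT2, which moves serine carbon into mitochondrial folate, had 238 CPM in the double knockdown and 557 CPM in shControl. MTHFD1L, of mitochondrial folate metabolism, had 89.9 CPM in the double knockdown and 212 CPM in shControl, and ALDH1L2, a mitochondrial formyltetrahydrofolate dehydrogenase, had 44.5 CPM in the double knockdown and 116 CPM in shControl. Of the regulators of polyamine synthesis, OAZ1, antizyme, had 1135 CPM in the double knockdown and 1227 CPM in shControl. AZIN1, its inhibitor, had 429 CPM in the double knockdown and 404 CPM in shControl, and neither was called. Of 23 measured amino acid transporters, 8 were lower (34.8%) and 1 higher, with a median of -0.39. Of the glutamine importers, SLC38A1 had 32 CPM in the double knockdown and 177 CPM in shControl, and SLC38A5 had 18.5 CPM in the double knockdown and 79.6 CPM in shControl. SLC7A2, which imports arginine, had 17.8 CPM in the double knockdown and 92.6 CPM in shControl. SLC1A5, the glutamine exchanger ASCT2, had 115 CPM in the double knockdown and 274 CPM in shControl, 2.39-fold (2.26 to 2.53) lower. SLC38A2, a further glutamine carrier, had 437 CPM in the double knockdown and 407 CPM in shControl and was not called.

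The C/EBP-ATF response element bound by ATF4 was searched for as TGATGNAA on both strands of the same promoters. It was present in 2.71% of all 9182 genes, in 24 of 514 called lower (4.67%), in 9 of 31 genes of the ATF4 list (29%) and in 7 of 18 tRNA synthetases (38.9%). Of ATF4 list members called lower, 5 of 17 held it (29.4%), near the share of the whole list, and of the synthetases called lower 1 of 2 did. The list gathers genes of the ATF4 response, so its share describes the list and not the knockdown. Of the 37 ATF4 list members eligible, 31 had a promoter. The stretches below are from 4 genes called lower, chosen because they hold this motif, which is in capitals. In CHAC1 it lies on the other strand and reads as the reverse complement, and the MTHFD1L stretch also holds an E-box in lower case.
CHAC1, chr15:40953232-40953299, plus strand: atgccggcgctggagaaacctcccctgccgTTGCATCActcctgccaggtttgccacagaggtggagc
ASNS, chr7:97872439-97872506, minus strand: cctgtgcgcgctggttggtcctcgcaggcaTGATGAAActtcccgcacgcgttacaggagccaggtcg
SLC1A5, chr19:46784874-46784941, minus strand: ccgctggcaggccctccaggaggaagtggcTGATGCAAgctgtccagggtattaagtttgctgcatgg
MTHFD1L, chr6:150866327-150866394, plus strand: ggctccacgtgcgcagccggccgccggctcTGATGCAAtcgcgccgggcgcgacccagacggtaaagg

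Nucleotide synthesis and DNA replication gave calls on the lower side alone. Of 30 nucleotide synthesis genes, 5 were lower (16.7%) and 0 higher, with a median of -0.64, and with total counts 3 were lower. Of the purine synthesis enzymes, PAICS had 184 CPM in the double knockdown and 443 CPM in shControl and PFAS had 59.4 CPM in the double knockdown and 157 CPM in shControl. PPAT, the committed step of that pathway, had 38.1 CPM in the double knockdown and 79 CPM in shControl and was not called with total counts. PAICS stood at 90.6 CPM in sh-c-Myc, below the double knockdown. IMPDH2, the step to guanine nucleotides, had 186 CPM in the double knockdown and 349 CPM in shControl and was not called. Of 54 replication and G1/S genes, 6 were lower and 0 higher, with a median of -0.62 and 53 ratios below 0. UHRF1, which maintains DNA methylation, had 180.3 CPM in the double knockdown, 88.4 in sh-c-Myc, 417 in sh-Bcl2 and 463 in shControl, 2.57-fold (2.46 to 2.69) lower. MCM10, needed for origin firing, had 53.5 CPM in the double knockdown and 121 CPM in shControl, and CDT1, the licensing factor, had 99.2 CPM in the double knockdown and 216 CPM in shControl. E2F2 had 22.8 CPM in the double knockdown and 59.2 CPM in shControl. MCM4, a helicase subunit, had 516 CPM in the double knockdown, 249 in sh-c-Myc, 952 in sh-Bcl2 and 882 in shControl and was not called against shControl.

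Of 54 mitosis and G2/M genes, 3 were lower (5.56%, near the background of 6.15%) and 0 higher, with a median of -0.36. The 3 were CDC25A, a phosphatase that activates CDKs, at 31.7 CPM in the double knockdown and 72.1 CPM in shControl, MYBL2, at 134 CPM in the double knockdown and 305 CPM in shControl, and SPC24, of the kinetochore, at 14.2 CPM in the double knockdown and 31.7 CPM in shControl. MKI67, the proliferation marker Ki-67, had 599.7 CPM in the double knockdown, 418 in sh-c-Myc, 858 in sh-Bcl2 and 769 in shControl, and TOP2A, topoisomerase II alpha, had 597 CPM in the double knockdown, 327 in sh-c-Myc, 645 in sh-Bcl2 and 633 in shControl, so sh-c-Myc was the lowest library for both. Among 21 G1 regulators, 2 D-type cyclins were lower and 0 genes higher (median -0.34). CCND1 had 3.71 CPM in the double knockdown and 10.1 CPM in shControl, and CCND2 had 39.7 CPM in the double knockdown and 93.5 CPM in shControl. The third D-type cyclin, CCND3, had 476 CPM in the double knockdown and 414 CPM in shControl and was not called. Of 27 p53 target genes, 5 were lower and 2 higher. PHLDA3, AEN, BBC3, PMAIP1 and SESN2 were the lower ones, and BTG2, an antiproliferative gene, was higher at 72.7 CPM in the double knockdown and 31 CPM in shControl. CDKN1A, which encodes p21, had 310.1 CPM in the double knockdown and 438 CPM in shControl and was not called. Of 50 replication-dependent histone genes listed, 38 are in the table and 10 passed, of which 7 were higher. HIST1H2AG had 5.31 CPM in the double knockdown and 1.21 CPM in shControl and HIST1H2BK 9.72 CPM in the double knockdown and 3.83 CPM in shControl. Such histone transcripts lack poly(A) tails in cycling cells, their levels are low here, and related copies share sequence, so the values are uncertain.

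The study's interest was in mitochondria, and there import and ribosomal genes gave more calls than the respiratory chain. Of 33 genes for mitochondrial import and folding, 9 were lower (27.3%) and 0 higher, with a median of -0.65 and 32 ratios below 0. HSPD1, the chaperonin HSP60, had 516 CPM in the double knockdown, 317 in sh-c-Myc, 1039 in sh-Bcl2 and 1156 in shControl, 2.24-fold (2.18 to 2.30) lower. LONP1, a matrix protease, had 131 CPM in the double knockdown, 116 in sh-c-Myc, 224 in sh-Bcl2 and 315 in shControl, 2.41-fold (2.29 to 2.54) lower, and TOMM40, the outer membrane import pore, had 67.4 CPM in the double knockdown, 46.5 in sh-c-Myc, 140.3 in sh-Bcl2 and 179 in shControl, 2.65-fold (2.47 to 2.85) lower. CLPP, a matrix protease subunit, had 42.3 CPM in the double knockdown and 109 CPM in shControl. TRAP1 and TIMM13 were lower too, with 29.3% and 28.9% of exonic bases shared with another gene. Of 77 mitochondrial ribosomal protein genes that passed, 12 were lower (15.6%, 7 genes with upper quartile factors) and 1 higher, with a median of -0.40. MRPL24 had 20.02 CPM in the double knockdown and 60.2 CPM in shControl and MRPS26 14.5 CPM in the double knockdown and 39.3 CPM in shControl, whereas DAP3 had 167 CPM in the double knockdown and 211 CPM in shControl and was not called.

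The respiratory chain itself gave few calls. Of 37 complex I genes, 1 was lower and 0 higher (median -0.18), namely NDUFB10, at 36 CPM in the double knockdown and 75.2 CPM in shControl, 2.09-fold (1.89 to 2.32) lower, a call lost with total counts. NDUFS1, a core subunit, had 205 CPM in the double knockdown and 228 CPM in shControl and was not called. Of 38 nuclear genes for complexes II to V, 0 were called (median -0.33), and ATP5F1B, the catalytic subunit of ATP synthase, had 1621 CPM in the double knockdown and 1979 CPM in shControl. Of 12 measured mRNAs of the mitochondrial chromosome, 1 was higher, MT-ND4L, at 618 CPM in the double knockdown, 487 in sh-c-Myc, 532 in sh-Bcl2 and 305 in shControl, 2.02-fold (1.95 to 2.10), just past the limit and in a transcript shared with MT-ND4. Their median was 0.26, with 11 ratios above 0. MT-CO1 had 16432 CPM in the double knockdown, 16868 in sh-c-Myc, 16775 in sh-Bcl2 and 13697 in shControl, so all 3 knockdown libraries lay above shControl, and MT-CO3 had 6446 CPM in the double knockdown and 6681 CPM in shControl. Of 22 genes for mitochondrial DNA maintenance and transcription, 2 were lower (1 with total counts). TWNK, the replicative helicase, had 47.3 CPM in the double knockdown and 116 CPM in shControl, 2.46-fold (2.25 to 2.69) lower, and TOP1MT, the mitochondrial topoisomerase, had 55.8 CPM in the double knockdown and 114 CPM in shControl and was not called with total counts. TFAM, which packages mitochondrial DNA, had 145 CPM in the double knockdown and 219 CPM in shControl and was not called. Of 22 genes for fission, fusion and cristae, 3 lay just past the limit on the lower side, C19orf70 (21.9 against 45.6 CPM), CHCHD10 (43.6 against 89.6 CPM) and CHCHD6 (2.11 against 4.26 CPM). With total counts 0 were lower and 1 higher, so the list's calls turn with the scaling. MFN2, of outer membrane fusion, had 208 CPM in the double knockdown and 243 CPM in shControl. Of 33 tricarboxylic acid cycle and pyruvate genes 0 were called (median -0.35), and CS, citrate synthase, had 269.6 CPM in the double knockdown and 379.6 CPM in shControl. Of 15 fatty acid oxidation genes, 1 was higher, CPT2, the inner membrane carnitine palmitoyltransferase, at 23.3 CPM in the double knockdown and 10.6 CPM in shControl, 2.19-fold (1.81 to 2.67).

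Of 24 glycolysis and lactate transport genes, 4 were lower and 1 higher (2 with total counts), with a median of -0.47. SLC16A1, the lactate carrier MCT1, had 42 CPM in the double knockdown, 24.1 in sh-c-Myc, 128 in sh-Bcl2 and 137 in shControl, 3.25-fold (2.98 to 3.56) lower, and LDHA, lactate dehydrogenase A, had 491 CPM in the double knockdown, 297 in sh-c-Myc, 993 in sh-Bcl2 and 1004 in shControl, 2.04-fold (1.99 to 2.10) lower, a call lost with total counts. HK3, a hexokinase of myeloid cells, had 17.3 CPM in the double knockdown, 25.6 in sh-c-Myc, 3.83 in sh-Bcl2 and 3.48 in shControl and was 4.94-fold (3.67 to 6.90) higher. GAPDH had 1813 CPM in the double knockdown and 1842 CPM in shControl and ENO1 1358 CPM in the double knockdown and 2448 CPM in shControl. ALDOA, called lower at 0.640 against 1.92 CPM, is uncertain, with 53.5% of exonic bases shared. Of 29 cholesterol and fatty acid synthesis genes, 2 were lower (1 with total counts), and FASN, fatty acid synthase, had 594 CPM in the double knockdown and 999 CPM in shControl. Of 26 antioxidant and NRF2 target genes, 5 were lower (3 with total counts) and 0 higher (median -0.49). GSTP1, a glutathione transferase, had 8.25 CPM in the double knockdown, 4.55 in sh-c-Myc, 25.8 in sh-Bcl2 and 38.9 in shControl, 4.70-fold (3.88 to 5.76) lower, and NQO1, a quinone reductase, had 17.2 CPM in the double knockdown, 13.4 in sh-c-Myc, 44.9 in sh-Bcl2 and 58.1 in shControl, 3.37-fold (2.94 to 3.89) lower. HMOX1, haem oxygenase, had 4.61 CPM in the double knockdown, 6.99 in sh-c-Myc, 26.6 in sh-Bcl2 and 11.1 in shControl, so it was high in sh-Bcl2 and low in the double knockdown. MT2A, a metallothionein, had 4.16 CPM in the double knockdown, 0.770 in sh-c-Myc, 6.41 in sh-Bcl2 and 15.1 in shControl, 3.62-fold (2.74 to 4.88) lower, and belongs to a list of 16 metallothionein and iron genes with 4 lower and 0 higher (median -0.16). FTL, of iron storage, had 2246 CPM in the double knockdown and 2799 CPM in shControl, and TFRC, of iron uptake, had 525 CPM in the double knockdown and 565 CPM in shControl. Metallothioneins have close copies, so their counts are uncertain.

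Ratios lay mostly below 0 for cytosolic chaperones and above 0 for lysosomal genes. Of 30 heat shock and chaperonin genes, 5 were lower (16.7%) and 0 higher, with a median of -0.54. Of the cochaperones of HSP90, FKBP4 had 46.1 CPM in the double knockdown and 132 CPM in shControl, and AHSA1 had 72.9 CPM in the double knockdown and 179 CPM in shControl. CCT7, a chaperonin subunit, had 218 CPM in the double knockdown and 465 CPM in shControl. PFDN2, a prefoldin subunit, had 14.8 CPM in the double knockdown, 18.5 in sh-c-Myc, 17.6 in sh-Bcl2 and 54.4 in shControl, so each knockdown library was low. HSP90AB1 had 1998 CPM in the double knockdown and 3836 CPM in shControl and was not called. Of 28 endoplasmic reticulum folding genes 0 were called (median 0.16), and CALR, calreticulin, had 777 CPM in the double knockdown and 1444 CPM in shControl. Of 37 proteasome genes, 1 was lower, PSMB10, with 34.8% of its exonic bases shared. Of 37 lysosomal genes, 3 were higher (8.11%, against 7.05% of all genes), with a median of 0.37 and 33 ratios above 0. TPP1, a lysosomal peptidase, had 384 CPM in the double knockdown, 384 in sh-c-Myc, 197 in sh-Bcl2 and 129.5 in shControl, 2.96-fold (2.81 to 3.12) higher. GRN, progranulin, had 594 CPM in the double knockdown, 685 in sh-c-Myc, 312 in sh-Bcl2 and 263 in shControl, 2.26-fold (2.18 to 2.35) higher, and ARSA, arylsulfatase A, had 36.9 CPM in the double knockdown and 17.8 CPM in shControl. PSAP, prosaposin, had 929 CPM in the double knockdown and 590.0 CPM in shControl and was not called. Of 28 autophagy genes, 2 were higher and 1 lower (0 with total counts), and ATG16L2 had 172 CPM in the double knockdown and 78.4 CPM in shControl.

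Monocyte and granule genes were called on the higher side alone. Of 33 monocyte and macrophage markers listed, 30 are in the table and 19 passed, of which 11 were higher and 0 lower, with a median log2 ratio of 1.1. Of the 30, 2 are at 0 in the double knockdown and 7 in shControl. A gene that is silent in shControl passes the limit only if it is high in the double knockdown, so the count over genes that passed is a description. TYROBP, an adaptor of activating receptors, had 75.9 CPM in the double knockdown, 89.1 in sh-c-Myc, 37.9 in sh-Bcl2 and 27.8 in shControl, 2.72-fold (2.43 to 3.06) higher. CX3CR1, the fractalkine receptor, had 165 CPM in the double knockdown and 75.7 CPM in shControl, ITGAM, the integrin CD11b, had 193 CPM in the double knockdown, 235 in sh-c-Myc, 94.2 in sh-Bcl2 and 78.1 in shControl, and TREM1, an activating receptor, had 3.84 CPM in the double knockdown and 0.710 CPM in shControl. CD14, the monocyte co-receptor for lipopolysaccharide, was low in both libraries (0.960 against 0.781 CPM) and FCGR1A, the high-affinity IgG receptor, had 123 CPM in the double knockdown and 92.3 CPM in shControl and was not called. Of 24 granulocyte granule genes listed, 12 passed, of which 10 were higher and 0 lower (median 1.61). ELANE, neutrophil elastase, had 1255 CPM in the double knockdown, 887 in sh-c-Myc, 336 in sh-Bcl2 and 350.2 in shControl, 3.58-fold (3.47 to 3.70) higher. CFD, complement factor D, had 478 CPM in the double knockdown, 523 in sh-c-Myc, 162 in sh-Bcl2 and 138 in shControl, 3.48-fold (3.31 to 3.66) higher, and SRGN, serglycin, the proteoglycan of granules, had 4182 CPM in the double knockdown, 3717 in sh-c-Myc, 2271 in sh-Bcl2 and 1820.4 in shControl, 2.30-fold (2.26 to 2.33) higher. PRTN3, proteinase 3, had 224 CPM in the double knockdown and 72.6 CPM in shControl, RNASE2 945 CPM in the double knockdown and 315 CPM in shControl and BPI 92.8 CPM in the double knockdown and 21.5 CPM in shControl. The exceptions were AZU1, azurocidin, at 2179 CPM in the double knockdown, 2523 in sh-c-Myc, 812 in sh-Bcl2 and 1387 in shControl, and CTSG, cathepsin G, at 206 CPM in the double knockdown and 344 CPM in shControl, neither of them called. Of 8 measured S100 genes, S100A8, S100A9 and S100A3 were higher and S100P lower, at 21 CPM in the double knockdown and 59.8 CPM in shControl.

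Of 29 measured myeloid transcription factors, 9 were higher (31.0%, against 7.05% of all genes) and 1 lower, with a median of 0.39. Members low in shControl pass the CPM limit only through the double knockdown, so this share is a description. KLF4, a factor of monocyte differentiation, had 34.8 CPM in the double knockdown, 39.3 in sh-c-Myc, 14.3 in sh-Bcl2 and 12.1 in shControl, 2.88-fold (2.42 to 3.45) higher. ID2, an inhibitor of helix-loop-helix factors, had 132 CPM in the double knockdown, 77.2 in sh-c-Myc, 70.4 in sh-Bcl2 and 45.9 in shControl, 2.88-fold (2.63 to 3.15) higher, and was highest in the double knockdown. IRF5 had 19.8 CPM in the double knockdown and 7.88 CPM in shControl, LMO2 221 CPM in the double knockdown and 105 CPM in shControl and CEBPE, of late granulocyte differentiation, 3.65 CPM in the double knockdown and 1.14 CPM in shControl. Of the lineage factors, SPI1 had 197 CPM in the double knockdown and 173 CPM in shControl, CEBPA had 154 CPM in the double knockdown and 186 CPM in shControl, and IRF8 had 817 CPM in the double knockdown and 749 CPM in shControl, none of them called. Of 26 HOXA and KMT2A-fusion targets 0 were called (median -0.15), and MYB had 717 CPM in the double knockdown and 470.3 CPM in shControl. Of 6 measured stem and progenitor markers, 1 was higher, KIT, the receptor for stem cell factor, at 6.46 CPM in the double knockdown and 1.77 CPM in shControl. Of 18 hypoxia targets, 3 were lower and 1 higher, with a median of -0.21, and with total counts 1 was lower.

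Receptors and effectors of phagocytes were higher in part. Of 25 haematopoietic cytokine receptors, 7 were higher (28.0%) and 0 lower (median 0.47). As for the transcription factors, that share is a description. CSF3R, the receptor for granulocyte colony-stimulating factor, had 254 CPM in the double knockdown, 398 in sh-c-Myc, 106 in sh-Bcl2 and 121 in shControl, 2.10-fold (1.99 to 2.23) higher, and TGFBR1 had 241 CPM in the double knockdown, 242 in sh-c-Myc, 172 in sh-Bcl2 and 97.9 in shControl, 2.46-fold (2.31 to 2.62) higher. Of 22 Fc receptor genes and their signalling partners, 5 were higher and 2 lower, against 6 and 0 with total counts, and FCGRT, the neonatal Fc receptor, had 166 CPM in the double knockdown and 52.7 CPM in shControl. Of 14 leukocyte integrin genes, 2 were higher, ITGAM and ITGAX. ITGAX, which encodes CD11c, had 62.1 CPM in the double knockdown and 29 CPM in shControl. Of 8 measured genes of the phagocyte NADPH oxidase and its relatives, 4 were higher. CYBB, the catalytic gp91phox, had 6.01 CPM in the double knockdown and 0.568 CPM in shControl, 10.02-fold (5.16 to 25.2) higher. NCF1 was higher too, at 78.2 CPM in the double knockdown and 29.1 CPM in shControl, but shares its sequence with pseudogene copies. CYBA, p22phox, had 128 CPM in the double knockdown and 174 CPM in shControl and was not called. Of 17 Toll-like receptor and inflammasome genes, 4 were higher, and TLR4, the receptor for lipopolysaccharide, had 7.93 CPM in the double knockdown and 2.63 CPM in shControl.

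Of 19 measured cytokines and chemokines, 6 were higher (31.6%) and 2 lower (1 with total counts; median 0.84). CCL24, a chemokine, had 4.67 CPM in the double knockdown, 4.36 in sh-c-Myc, 2.97 in sh-Bcl2 and 0.497 in shControl, and IL12A, a subunit of IL-12, was lower at 0.576 CPM in the double knockdown and 3.26 CPM in shControl. TNFSF13B, the B cell survival factor BAFF, had 269 CPM in the double knockdown and 152 CPM in shControl, and TGFB1 318 CPM in the double knockdown and 237 CPM in shControl, neither of them called. Of 39 interferon response genes that passed, of 48 listed, 11 were higher (28.2%, against 7.05% of all genes) and 0 lower, with a median of 0.70 and 32 ratios above 0. Members low in shControl pass the CPM limit only through the double knockdown, so this share and that of the cytokines are descriptions. Of all genes whose larger value lay between 1 and 10 CPM, 16.3% were higher. RSAD2, the antiviral protein viperin, had 12.5 CPM in the double knockdown, 11.4 in sh-c-Myc, 7.66 in sh-Bcl2 and 3.19 in shControl, 3.87-fold (2.81 to 5.53) higher. IFIT3 had 40.3 CPM in the double knockdown, 31.8 in sh-c-Myc, 24.1 in sh-Bcl2 and 15.9 in shControl, 2.53-fold (2.17 to 2.97) higher. SAMD9L had 49.8 CPM in the double knockdown, 33.2 in sh-c-Myc, 25.6 in sh-Bcl2 and 24 in shControl, 2.08-fold (1.83 to 2.37) higher. LGALS3BP had 3.01 CPM in the double knockdown, 1.22 in sh-c-Myc, 0.528 in sh-Bcl2 and 0.639 in shControl, and IFI44L, at 0 counts in sh-Bcl2, had 1.79 CPM in the double knockdown and 0.284 CPM in shControl. Of 15 MHC class I and presentation genes, 1 was lower and 0 higher, and B2M had 906 CPM in the double knockdown and 722 CPM in shControl. Of 4 measured MHC class II genes, 1 was lower and 0 higher. Of 22 NF-kB subunits and feedback genes 0 were called (1 higher with total counts), with a median of 0.11. Of 36 immediate early genes, 5 were higher and 4 lower. FOSL2 had 459 CPM in the double knockdown, 584 in sh-c-Myc, 218 in sh-Bcl2 and 201 in shControl, 2.28-fold (2.18 to 2.38) higher, and ETV4, a target of ERK signalling, had 5.50 CPM in the double knockdown and 22.6 CPM in shControl, 4.10-fold (3.23 to 5.29) lower.

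Interferon-stimulated promoters were searched on both strands for TTTC, any 2 bases and TTTC, the core of the interferon-stimulated response element. Over all 9182 genes 4.14% held it. Only 71.8% of the interferon list had a promoter in the table, so the share in that list is not read. A stretch from each of RSAD2 and LGALS3BP is shown as examples among the genes called higher, with the motif in capitals, on the other strand in LGALS3BP.
RSAD2, chr2:6877602-6877671, plus strand: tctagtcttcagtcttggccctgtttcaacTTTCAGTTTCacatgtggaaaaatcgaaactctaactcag
LGALS3BP, chr17:78979942-78980011, minus strand: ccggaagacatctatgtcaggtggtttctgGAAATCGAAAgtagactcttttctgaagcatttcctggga

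The single knockdowns were compared with the same shControl library, so the 3 comparisons share it and are given side by side only. In sh-c-Myc, 1690 of 13392 genes (12.6%) were higher and 1337 (9.98%) lower. In sh-Bcl2, 289 of 12792 genes (2.26%) were higher and 269 (2.1%) lower. Ribosome biogenesis had a median log2 ratio of -0.87 in the double knockdown, -1.35 in sh-c-Myc and -0.02 in sh-Bcl2. Mitosis and G2/M genes had medians of -0.36, -1.24 and -0.04 in that order, and replication genes -0.62, -1.26 and 0.03. For the ATF4 list the medians were -1.11 in the double knockdown, -0.62 in sh-c-Myc and -0.68 in sh-Bcl2. Interferon response genes had 0.70, 0.33 and -0.04, and granule genes 1.61, 1.50 and 0.17. So the double knockdown had the lowest median for the ATF4 list and the highest for interferon genes, while the ribosome, mitosis and replication lists were lowest in sh-c-Myc. All 3 medians were taken over members with at least 1 CPM in the double knockdown or shControl. Members that are high only in a single knockdown are left out, so this order is a description. Of the 39 interferon genes, 3 were higher and 1 lower in the double knockdown than in sh-c-Myc, with a median log2 ratio of 0.20.

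**Figure D4:**
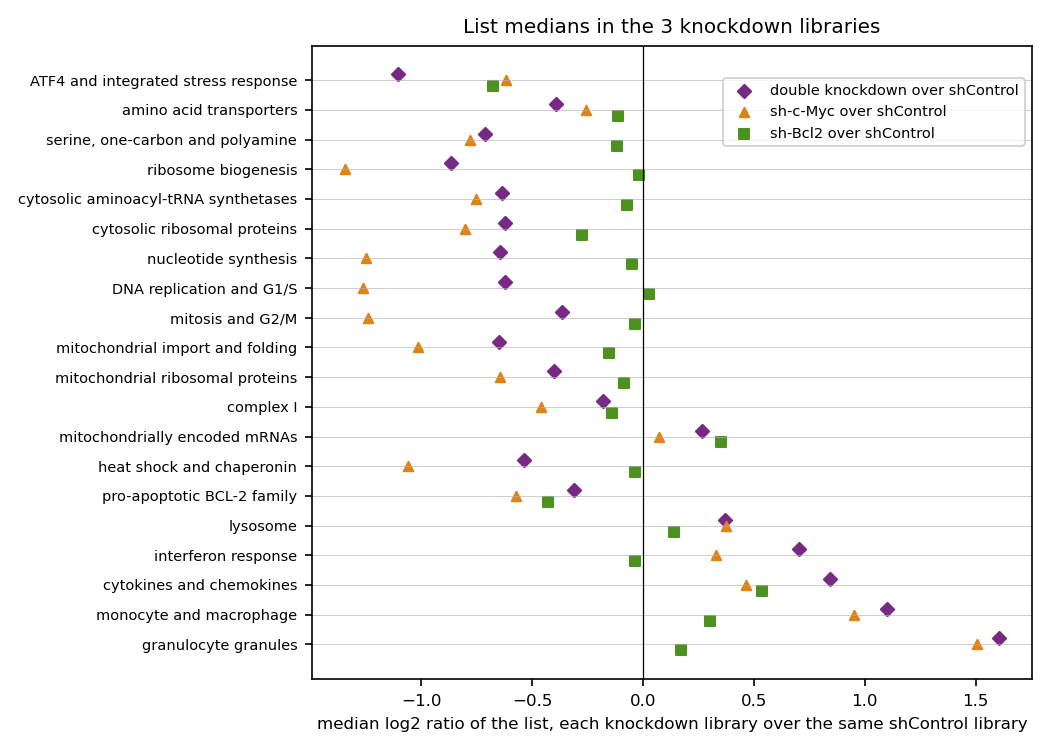
Median log2 ratio (horizontal axis) of 20 gene lists in the double knockdown (diamonds), sh-c-Myc (triangles) and sh-Bcl2 (squares), each over the same shControl library. Medians were taken over members with at least 1 CPM in the double knockdown or shControl. For ribosome biogenesis the double knockdown lies at -0.87, between sh-c-Myc at -1.35 and sh-Bcl2 at -0.02, and for the ATF4 list it lies lowest at -1.11.

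Set directly against the single knockdowns, the double knockdown gave fewer calls against sh-c-Myc than against sh-Bcl2. Against sh-c-Myc, 222 of 13362 genes (1.66%) were higher and 635 (4.75%) lower. Against sh-Bcl2, 655 of 12972 genes (5.05%) were higher and 476 (3.67%) lower. CHAC1 had a log2 ratio of -2.91 (-3.52 to -2.38) against sh-c-Myc and -1.75 (-2.39 to -1.17) against sh-Bcl2. The ratios of STC2 were -1.79 (-2.31 to -1.32) and -2.62 (-3.11 to -2.18), and those of SLC7A5 were -1.63 (-1.73 to -1.54) and -1.13 (-1.23 to -1.03). These 3 genes were called lower against each single knockdown. SPP1 had 2.23 (1.70 to 2.83) against sh-c-Myc and 0.03 (-0.30 to 0.36) against sh-Bcl2, and MPO had 0.02 (-0.02 to 0.06) and 2.01 (1.95 to 2.07), so each was called against 1 single knockdown and not the other. PAICS was higher than in sh-c-Myc, at 1.02 (0.93 to 1.11), and SLC29A1 likewise, at 1.45 (1.20 to 1.70). Of 54 mitosis genes, 13 were higher than in sh-c-Myc and 0 lower, and of 38 ATF4 list genes 7 were lower and 0 higher.

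The called genes also differed in kind, level and composition. Of 11197 protein-coding genes, 615 (5.49%) were higher and 651 (5.81%) lower. Of 1278 long noncoding genes, 233 (18.2%) were higher and 94 (7.36%) lower, with a median log2 ratio of 0.26. Among 3709 genes whose larger value lay between 1 and 10 CPM, 606 (16.3%) were higher and 360 (9.71%) lower. Among 6576 genes between 10 and 100 CPM, 226 (3.44%) were higher and 329 (5.00%) lower. Long noncoding genes were not compared with genes of like level, so the part of level in their share was not tested. Median transcript GC content was 48.4% in genes called higher, 54.3% in genes called lower and 48.0% in all genes. Median exonic length was 3655 bases in genes called higher, 3384 in genes called lower and 4756 in all. For 10647 genes averaging 50 counts or more, Spearman's rho of the log2 ratio was -0.204 with GC content and 0.165 with length, as a description across genes of the same pair of libraries. With the fitted trend in GC content and length removed, 966 genes were higher and 693 lower. These totals do not show which main calls were kept, so the part of GC content and length in the calls was not tested. More than 20% of exonic bases were shared with another gene for 93 of the 917 genes called higher and 98 of the 800 called lower, against 1394 of all 13007.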

How the data were processed

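RNA was taken from MOLM-13 cells with TRIzol and made into libraries with the NEBNext Ultra RNA kit, per the labels. Reads were aligned to GRCh38 with HISAT2 and counted with HTSeq 0.13.5, per the submitters' processing notes. Strand setting, aligner version and annotation release were not given in the sources used here. In 1 table the authors deposited whole-number counts and FPKM per gene, and the deposited FPKM values served as an alternative only. Every identifier was found in GENCODE 29 (24940 of 24940), 24929 with an equal symbol, and 25 symbols are repeated. Promoters of chromosome 8 were not used.

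Counts were scaled with TMM factors over 4 libraries (edgeR 4.0.16, R 4.3.3), and DESeq2 1.42.0 gave median-ratio factors as an alternative. Log2 ratios use a prior of 0.5 counts, and intervals are exact conditional binomial (Clopper-Pearson) at 95%, computed in scipy 1.17.1. No test between groups was run, since each has 1 library. Members of 59 gene lists are described by counts of calls and medians. Members and lists were chosen with earlier results of these data known. Named genes are MYC, BCL2, in each direction the 15 called genes at 10 CPM or more whose interval end nearest to 1 (conservative fold) was largest, and of each list the 5 called members with the largest conservative fold and the 2 of highest mean level, plus genes with printed promoters. Other members named (MAX, MXD1, BCL2L1, BCL2L11, HOXA9, MEIS1, CD33, CD14, FCGR1A, CX3CR1, CTSG, PRTN3, RNASE2, SPI1, CEBPA and CEBPE) were chosen after their values were seen. Some genes that the rule names are not reported here.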

Additional observations from a re-analysis of the deposited data

How the results depend on the processing

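Calls kept their count within 1.5 times under total counts (1081 higher, 643 lower), median-ratio factors (930, 789), upper quartile factors (1093, 637), TMM over the 2 compared libraries (917, 800), a library size without ribosomal protein and mitochondrial genes (1079, 717), no filter on low counts (1220, 1019), protein-coding genes alone (615, 651) and removal of the GC and length trend (966, 693). They moved with FPKM + 1 in place of counts (326 higher, 256 lower), a mean count of 50 or more (443, 524), a 1.5-fold limit (1774, 2013) and a 4-fold limit (195, 112). The log2 ratio of MYC, -0.52, was -0.44 with total counts, -0.43 with upper quartile factors, -0.47 without ribosomal protein and mitochondrial genes in the library size and -0.43 with FPKM + 1. That of BCL2 was -1.15 with FPKM + 1. The scalings shifted the median of all genes by at most 0.09. The higher share of calls was 53.4% in the main setting, 62.7% with total counts and 63.2% with upper quartile factors. Of 708 list medians recomputed, 654 stayed within 0.1 of the main value and 54 moved by more. The 654 include 59 each from the 1.5-fold limit, the 4-fold limit and TMM over the 2 compared libraries. The fold limits alter calls only, and that TMM setting gave the same scaling, so no median could move there. They also include 59 each from total counts, median-ratio factors and upper quartile factors. Each of these shifts every gene by the same amount, at most 0.09, so no median could move by more than 0.1 there either. The sign changed 9 times, 6 of them where the main median lay within 0.1 of 0 (cholesterol and fatty acid synthesis, stem and progenitor markers, MHC class I). The others were megakaryocyte markers, at -0.19 with a mean count of 50 or more and at -0.19 with no filter, and MHC class II, at 0.21 with no filter, over few genes each. Over the alternatives, counts of list members called higher moved by over 1.5 times in 89 of 708 and those called lower in 143. Named genes lost a call 249 times, gained a call 44 times and were otherwise unchanged 2209 times. The unchanged ones include genes not called in either setting, so no share of kept calls is read from them. The cause of the other shifts was not tested. No paired analysis was possible because each group has 1 library. Depth limits the low genes most, since 1 CPM is about 15 counts. With 1 library a group, the spread between cultures is unknown and no replicate could be left out. Overlapping genes are uncertain because the strand setting is unknown here.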

Other observations

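Some gene families outside the lists, chosen after their values were seen, were also read by counts. A member low in shControl passes the CPM limit only through the double knockdown, so these counts are values. Where a share is given for a further family, it stands beside that of all genes and nothing is read from it. Of 9 MS4A genes in the files, 4-span membrane proteins of leukocytes, 6 passed and 5 were higher in the double knockdown (MS4A4A, MS4A6A, MS4A7, MS4A14 and MS4A3). Of 11 SIGLEC genes in the files, sialic acid-binding lectins, 5 passed and 4 were higher. SIGLEC1, the macrophage lectin sialoadhesin, had 7.29 CPM in the double knockdown and 0.0710 CPM in shControl, which is 1 count in shControl, and a log2 ratio of 6.10 (4.18 to 12). Of 22 CLEC genes in the files, C-type lectins, 9 passed and 5 were higher (CLEC12A, CLEC12B, CLEC5A, CLEC7A and CLEC1B).

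On the lower side, 4 of 17 small nucleolar RNA host genes were lower (SNHG15, SNHG7, SNHG12 and SNHG1), with a median of -0.70. Of 22 tRNA and pseudouridine modification genes of the PUS and TRMT families, 5 were lower, with a median of -0.56. These shares were 23.5% and 22.7%, beside 6.15% over all genes. Of 10 genes with EXOSC symbols 2 were lower (20%). Of 5 genes with LILR symbols 1 was higher (20%), and of 8 with ADAM symbols 1 was higher (12.5%), beside 7.05% over all genes. Of 171 measured solute carriers, 21 were lower (12.3%) and 11 higher (6.43%), beside 6.15% and 7.05% over all genes. Of 352 zinc finger genes with ZNF symbols, 11 were higher and 11 lower (3.13% each), beside 7.05% and 6.15% over all genes. Intergenic noncoding genes with LINC symbols had 25 of 113 higher (22.1%) and 4 lower, beside 18.2% and 7.36% of all long noncoding genes.

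By chromosome, with Y left out, the share of genes called higher was largest on chromosome 21 (17 of 146, 11.6%). Chromosomes X (9.82%) and 7 (9.75%) followed, beside 7.05% over all genes. The share called lower was largest on chromosome 16 (59 of 619, 9.53%), followed by chromosome 9 (8.02%), beside 6.15% over all genes. These are extremes among many chromosomes, and nothing is read from them. Genes at 0 counts in shControl and above the CPM limit in the double knockdown included ACP5, which encodes tartrate-resistant acid phosphatase and was at least 5.71-fold higher against the floor of 3 counts in shControl. ACP5 was also at 0 in sh-c-Myc.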
